A study of Saccharomyces cerevisiae with 2 samples.

Results

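The left end of budding yeast chromosome III, from the telomere to 30 kb, includes HML, the silent mating-type cassette. It was taken as every predicted nucleosome centre at positions 1 to 30000 in 4 lists for the chromosome, 787 of 8357 entries in all. The 4 lists came from 2 libraries of Saccharomyces cerevisiae. One held mononucleosomes enriched for the histone variant H2A.Z by precipitation with an anti-Myc antibody, and the other held total mononucleosomes. Both were made from strain yFR212, a W303 derivative of mating type MATa that is GAL+ and psi+ and has the alleles ura3-1, leu2-3 together with leu2-112, his3-11,15, trp1-1, ade2-1 and can1-100. In both libraries the cells carried HTZ1, the gene of H2A.Z, with 3 Myc copies at its C-terminal end, so the total library is no untagged control. Cells grown in rich YPD medium to an OD600 of 0.8 were fixed with 1% formaldehyde. Aliquots of nuclei were digested for 20 minutes at 37 °C with different amounts of micrococcal nuclease, an enzyme that cuts the DNA between nucleosomes.

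HML holds an unexpressed copy of the α mating-type genes. The E and I silencers flank it, and Sir proteins spread from them to form closed chromatin, so that a MATa cell does not express the α genes. Sir proteins also silence telomeres. H2A.Z is known from nucleosomes beside gene promoters and from euchromatin next to silent domains, where it limits their spread. In assembly R64 the genes run inwards from the telomere as the pseudogenes YCL075W and YCL074W, GEX1 (a glutathione exchanger), VBA3 (a vacuolar permease for basic amino acids) and YCL068C. HMLALPHA2 and HMLALPHA1 come next, the silent copies of the α repressor and the α activator. Beyond HML follow CHA1 (a catabolic serine and threonine deaminase), VAC17 (vacuole inheritance), MRC1 (replication checkpoint) and KRR1 (ribosomal RNA processing). FYV5, ADF1, MIC10, PRD1, PEX34 and KAR4 come after these. The lists use build sacCer2, so no centre was assigned to a gene, and HML was taken as the stretch from 11 to 15 kb.

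Several of these genes have near copies elsewhere in R64. GEX2 on chromosome XI has the length of GEX1 (1848 bp), and VBA5, also on XI, is 1749 bp long against 1377 bp for VBA3. MATALPHA1 and MATALPHA2 have the lengths of their HML copies, 528 and 633 bp. How reads from repeated sequence were treated is not given in the sources used here. A stretch with no listed centre therefore does not show that nucleosomes were absent, and the part of repeated sequence in any result below was not tested.

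Each library had a list made from its paired-end and another from its single-end reads, going by the file names. The left end held 227 of 2264 paired-end centres in the H2A.Z library and 213 of 2353 in the total library, and 171 of 1859 and 176 of 1881 single-end centres. They were compared with the centres from 30 to 286 kb, called the rest of the chromosome here, which numbered 1830, 1907, 1511 and 1519 in the same order. The lists give no read counts, so depth is unknown. With 1 library per group there is no replicate error and no test. The intervals given are 95% intervals over listed centres, exact for shares and densities and from order statistics for medians. They cover counting error only, and neighbouring centres are not independent. The 2 lists of a library are not independent either. Scores are the authors' own and were used only as ranks or percentiles within 1 list, from 0 for the lowest to 100 for the highest.

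Taken as a whole, the left end did not stand apart in how many centres it held. Its centres were less evenly spaced. In the H2A.Z library they also ranked low, but by windows of 10 kb only the first 10 kb was unusual in this. The paired-end density was 7.57 centres per kb in the H2A.Z library (6.61 to 8.62), against 7.15 in the rest. In total chromatin it was 7.10 per kb (6.18 to 8.12), against 7.45 in the rest. The single-end densities were 5.70 against 5.90 in the H2A.Z library and 5.87 against 5.93 in total chromatin. In all 4 lists the rest lay inside the interval of the left end. These values average a dense first 10 kb and HML, where a long stretch held no centre, both given below.

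Distances of 140 to 200 bp between neighbouring centres, which bracket the usual nucleosome repeat of this yeast, were scarcer at the left end in all 4 lists. They made up 69 of 226 paired-end distances in the H2A.Z library, 30.5% (24.6 to 37.0%), against 43.6% in the rest (41.3 to 45.9%) and 42.2% over the whole list. In total chromatin they were 70 of 212, 33.0% (26.7 to 39.8%), against 42.0% in the rest (39.7 to 44.2%) and 41.2% over the whole list. The single-end shares were 43.5% in the H2A.Z library (36.0 to 51.3%), against 59.9% in the rest and 58.1% over the whole list. Total chromatin had 53.1% (45.5 to 60.7%), against 66.2% in the rest and 64.3% over the whole list. In 3 of the 4 lists the intervals of left end and rest did not meet, and in the total paired-end list they overlapped narrowly, 39.8% against 39.7%.

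Distances under 100 bp, too short for neighbours on 1 DNA molecule, were more frequent at the left end. In the H2A.Z paired-end list 82 of 226 were that short, 36.3% (30.0 to 42.9%), against 26.2% in the rest (24.2 to 28.3%) and 26.9% over the whole list. In the total paired-end list they were 32.1% (25.9 to 38.8%), against 30.3% in the rest and 30.6% over the whole list, which is inside the interval. The single-end lists, with fewer such pairs, had 15.3% at the left end in the H2A.Z library (10.2 to 21.6%), against 9.14% in the rest and 9.80% over the whole list. Total chromatin had 14.9% (9.94 to 21.0%), against 7.91% in the rest (6.60 to 9.38%) and 9.04% over the whole list. For H2A.Z the median paired-end distance was 115 bp, with limits of 109 and 132 bp, against 140.3 bp in the rest. In total chromatin it was 129 bp (121 to 139 bp), against 137 bp in the rest. These medians depended on the close pairs: with every centre within 100 bp of a higher-scoring one removed, they were 168 bp against 164 bp in the H2A.Z library and 169 bp against 164 bp in total chromatin.

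Fuzziness, measured by how widely forward reads scattered about a centre (their SD), differed little over the left end as a whole. In the H2A.Z paired-end list the left end had a median of 26.5 bp, with limits of 25.8 and 27.0 bp, against 26.9 bp in the rest. Total chromatin had 25.7 bp (25.3 to 26.4 bp), against 25.2 bp in the rest (24.99 to 25.5 bp). The single-end medians were 31.3 bp against 30.8 bp in the H2A.Z library and 30.6 bp against 29.9 bp in total chromatin. The differences are under 1 bp, and their sign was not the same in the 2 paired-end lists. By distance, H2A.Z single-end centres of the first 10 kb had a median of 33.1 bp (31.0 to 35.0 bp), above all 25 windows of 10 kb in the rest, while the H2A.Z paired-end median of 26.3 bp was above 9 of them. Total paired-end centres had 26.3 bp in the first 10 kb, above 22 windows, and 27.2 bp at 10 to 20 kb (25.2 to 28.6 bp), above all 25. The total single-end medians there, 31.5 and 31.2 bp, were above 19 and 17 windows, so neither excess stood in both lists of its library. At HML the median of the 12 total paired-end centres was 27.5 bp (23.7 to 31.0 bp), above 50 of 51 windows of 5 kb in the rest. The total single-end median was 30.7 bp, above 32 of them. The H2A.Z medians there, 26.9 bp paired-end and 31.1 bp single-end, were above 26 and 30.

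Taken over its whole length, the left end was separated from the rest by score rank more clearly in the H2A.Z library than in total chromatin. For the H2A.Z paired-end centres the median percentile was 38.7 (31.7 to 42.5), against 51.6 in the rest (49.5 to 54.1). In the total paired-end list it was 49.0 (41.8 to 53.3), against 52.3 in the rest (50.1 to 54.6). Of the H2A.Z paired-end centres, 10 of 227 reached the top 10% of their list, a share of 4.41% (2.13 to 7.95%), against 10.5% in the rest (9.12 to 12.0%) and 9.98% over the whole list. Of the total paired-end centres 18 of 213 did, 8.45% (5.09 to 13.0%), against 10.8% in the rest and 9.99% over the whole list. The single-end medians had the same order, 35.6 in the H2A.Z library (28.8 to 43.3) against 51.7 in the rest, and 46.3 in total chromatin (41.4 to 52.3) against 52.5 in the rest. The single-end top 10% held 10 H2A.Z centres of the left end, 5.85% (2.84 to 10.5%), against 9.95% over the whole list, and 16 total centres, 9.09% (5.29 to 14.3%), against 9.99% over the whole list. The low H2A.Z rank came mainly from the first 10 kb, where 1 of 25 windows of the rest had a lower median in each list. The H2A.Z paired-end medians were 42.2 at 10 to 20 kb and 44.0 at 20 to 30 kb, with 8 and 9 windows lower. The H2A.Z single-end medians there were 46.9 and 48.5, with 10 windows lower for each. In the H2A.Z paired-end list the medians of these windows of the rest ran from 27.0 to 76.7.

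**Figure D1:**
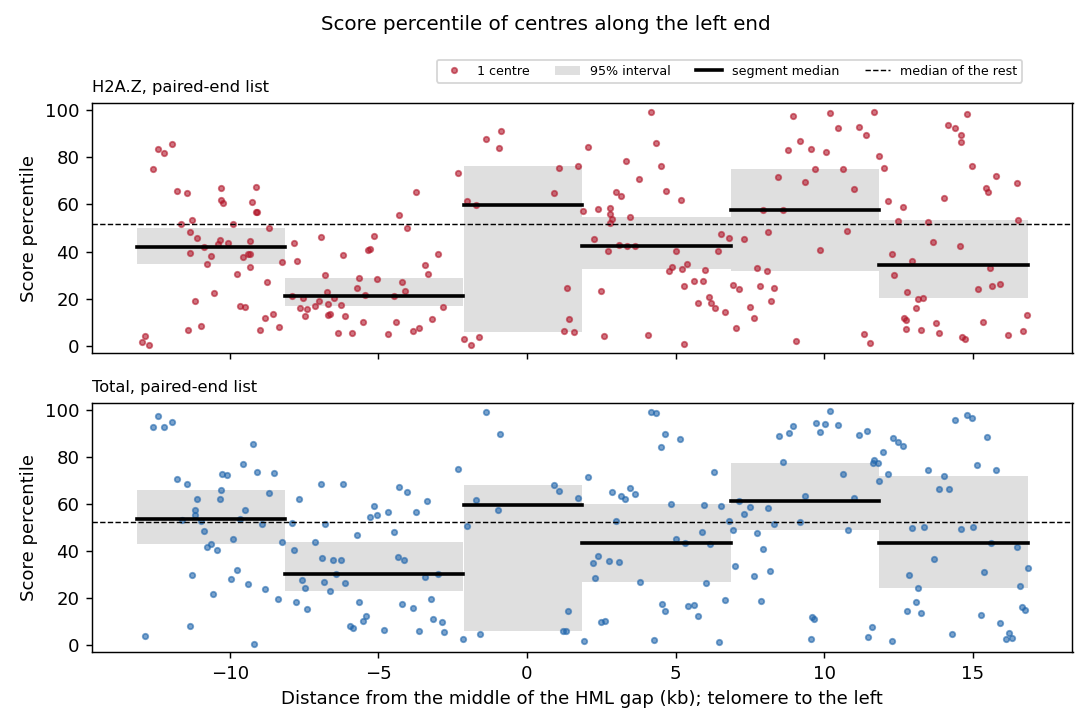
Score percentile within its own list (vertical axis, 0 lowest to 100 highest) of each paired-end centre by distance from the middle of the HML gap in kb, with H2A.Z centres in the upper and total centres in the lower panel, black lines for the medians of 6 stretches, grey boxes for their 95% intervals and a dashed line for the median of the rest. At 5 to 11 kb from the telomere no centre reached the top 10% in either library, and the median was 21.3 in the H2A.Z library and 30.4 in total chromatin.

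At the telomere the outermost listed centres ranked low. In the H2A.Z paired-end list they were at 180.3, 285 and 421, with percentiles of 1.63, 4.11 and 0.40. In the total paired-end list the first was at 264, with a percentile of 3.91. A pair of sites further in ranked high, with H2A.Z centres at 533 and 705 at percentiles of 75.2 and 83.7. Their total partners, the second and next centres of that list at 543 and 704, had percentiles of 92.7 and 97.2. The single-end lists gave the same contrast at both sites, with 77.1 and 81.3 in the H2A.Z library and 90.2 and 96.4 in total chromatin. The strong centres nearest the telomere thus stood higher in total chromatin in both kinds of list.

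The first 5 kb were crowded in the H2A.Z paired-end list, with 47 centres or 9.40 per kb (6.91 to 12.5), against 39 or 7.80 per kb in total chromatin (5.55 to 10.7). The single-end lists did not show this excess of H2A.Z over total chromatin, with 33 centres or 6.60 per kb in each library. Of 51 windows of 5 kb in the rest, 49 were less dense than the H2A.Z paired-end value and 32 less dense than the total one. For each single-end list 43 of the 51 windows were less dense, so the first 5 kb were dense there too. Close pairs were frequent here, with 20 of 46 H2A.Z paired-end distances under 100 bp, 43.5% (28.9 to 58.9%), against 26.2% in the rest. In total chromatin the share was 34.2% (19.6 to 51.4%), against 30.3% in the rest. The crowding therefore need not mean more nucleosomes on 1 DNA molecule. The median paired-end percentile was 42.0 in the H2A.Z library and 53.6 in total chromatin. None of the 47 H2A.Z centres and 4 of the 39 total centres were in the top 10% of their list.

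The stretch from 5 to 11 kb, between the telomere-proximal centres and HML, had the lowest median scores of the left end. The median percentile of its 45 H2A.Z paired-end centres was 21.3 (17.0 to 28.9), and that of its 47 total centres was 30.4 (22.9 to 43.6). The single-end medians were 17.8 in the H2A.Z library and 32.2 in total chromatin. Among the 51 windows of the rest, 2 had a lower H2A.Z and 3 a lower total paired-end median, and 1 and 3 had lower single-end medians. These windows are 5 kb long and the stretch 6 kb. No centre of either paired-end list in this stretch was in the top 10%.

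Evenly spaced neighbours were scarce there in both libraries. Of the single-end distances in the H2A.Z library, 17.1% were 140 to 200 bp long (6.56 to 33.7%), against 33.3% in total chromatin (18.6 to 51.0%), and for each library 1 of the 51 windows lay lower. Single-end distances under 100 bp made up 28.6% in the H2A.Z library (14.6 to 46.3%), above all 51 windows, and 22.2% in total chromatin (10.1 to 39.2%), above 47 of them. Of its H2A.Z single-end centres 61.1% had a total centre within 20 bp (43.5 to 76.9%), against 72.7 to 92.9% in the other stretches of the left end. The paired-end lists did not show this, with 64.4% (48.8 to 78.1%) in the stretch against 59.5 to 82.9% in the others.

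**Figure D2:**
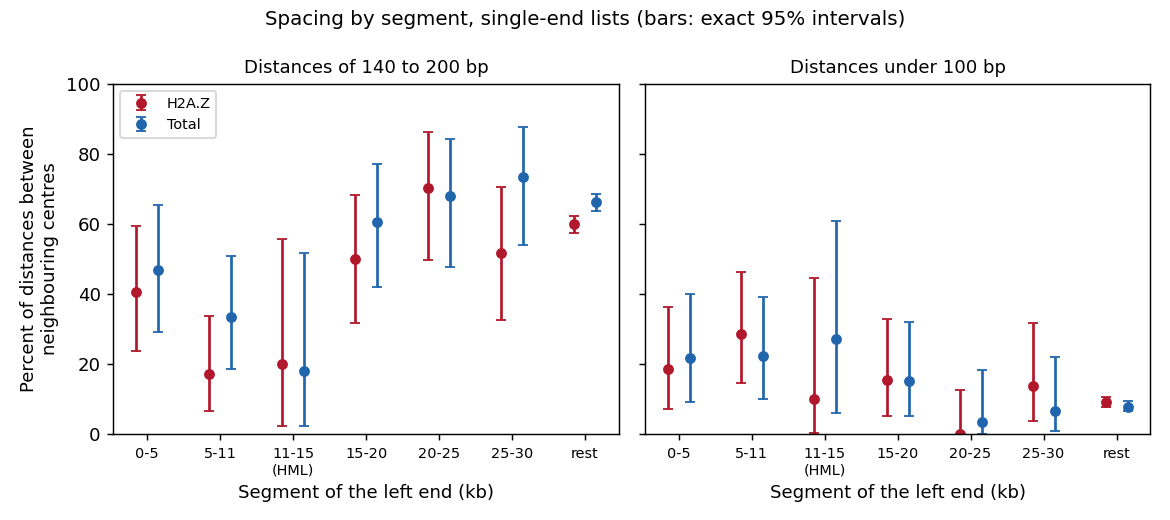
Percent of single-end neighbour distances of 140 to 200 bp (left) and under 100 bp (right) in 6 stretches of the left end in kb and in the rest, with points for the H2A.Z library (red) and the total library (blue) and bars for exact 95% intervals. The share of 140 to 200 bp is 17.1% in the H2A.Z library and 33.3% in total chromatin at 5 to 11 kb, and 70.4% and 67.9% at 20 to 25 kb, and the intervals at HML are wide.

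HML had few centres and a long stretch with none, placed alike in both libraries. It held 15 H2A.Z and 12 total paired-end centres, and 11 and 12 single-end centres. The paired-end densities were 3.75 per kb (2.10 to 6.19) and 3.00 per kb (1.55 to 5.24), against 7.15 and 7.45 in the rest. The length counted includes the long stretch, so these densities do not show that HML was sparse outside it. Single-end distances of 140 to 200 bp numbered 2 of 10 in the H2A.Z library, 20.0% (2.52 to 55.6%), and 2 of 11 in total chromatin, 18.2% (2.28 to 51.8%). For each, 1 of 51 windows of 5 kb in the rest lay lower. That window, at 85001 to 90000, was itself nearly empty, with 3 H2A.Z and 4 total single-end centres. The paired-end shares were 6 of 14 or 42.9% and 1 of 11 or 9.09%, with 21 and 2 windows lower. These ranks thus rest on few distances. The long stretch ran from 12246 to 14030.2 in the H2A.Z paired-end list, 1784 bp, and from 12244 to 14032 in the total paired-end list, 1788 bp. In the single-end lists it measured 1786 bp in the H2A.Z library and 1793 bp in total chromatin. In each list it ranked 3 among the distances of the chromosome by length, and no list had a centre inside it. The candidate regions in which the authors sought centres also left it empty, with 1515 bp between them in the H2A.Z paired-end list and 1508 bp in the total one. The 4 lists placed its left edge within 12240 to 12246 and its right edge within 14030.2 to 14033. The listed standard error of the right edge was 25.9 bp in the total single-end list, against 1.86 to 6.08 bp in the others.

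The edges of this stretch were ordinary to high in score. The left edge centre at 12246 ranked 200 in the H2A.Z paired-end list, a percentile of 91.2, and its partner at 12244 ranked 240 in the total list, a percentile of 89.8. Their forward SDs, 14.6 bp and 15.1 bp, were well under the medians of 26.5 bp and 25.7 bp over the left end. Each had a second centre close by, at 12180 and 12178, 66.3 bp and 65.8 bp away. The right edge centres had percentiles of 64.7 in the H2A.Z library and 68.1 in total chromatin, with forward SDs of 26.1 bp and 25.5 bp. Both libraries thus gave the edges much the same rank and width.

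Of the 15 H2A.Z paired-end centres at HML, 8 lay within 20 bp of a centre in each of the other 3 lists. That share, 53.3% (26.6 to 78.7%), was near the 50.7% over the whole list and the 51.1% of the rest. They were at 11118, 11408, 11768, 12180, 12246, 14030.2, 14212 and 14871. Their percentiles in the H2A.Z paired-end list were 61.3, 59.8, 87.9, 84.0, 91.2, 64.7, 75.3 and 76.2, all above the median of that list. The total paired-end partners had 50.4, 61.5, 99.0, 57.4, 89.8, 68.1, 65.3 and 62.3. The remaining H2A.Z centres ranked lower. Those at 11268, 14478, 14565 and 14723 had no centre of another list within 20 bp, and had percentiles of 0.27, 24.5, 11.5 and 5.92. Those at 11020.0, 11534 and 14384 had 2.87, 3.89 and 6.36. The nearest total paired-end centres were 39.8 bp from 14478 and 33.8 bp from 14565. The total paired-end list had 4 further centres, at 11549, 14334, 14438 and 14532, with percentiles of 4.55, 5.95, 6.08 and 14.5.

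The strongest centre of HML was the left edge centre at 12246 in the H2A.Z lists and another site, at 11772, in the total lists. At the second of these sites the H2A.Z centre at 11768 ranked 274 of 2264, a percentile of 87.9, and the total centre at 11772 ranked 25 of 2353, a percentile of 99.0. The single-end lists gave 85.4 in the H2A.Z library at rank 273 and 98.9 in total chromatin at rank 21. That total single-end centre had a listed standard error of 26.4 bp. A second empty stretch followed this site, 412 bp to the centre at 12180 in the H2A.Z paired-end list and 405 bp to that at 12178 in the total list. The single-end lists had 414 bp and 403 bp there, and no list had a centre inside.

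**Figure D3:**
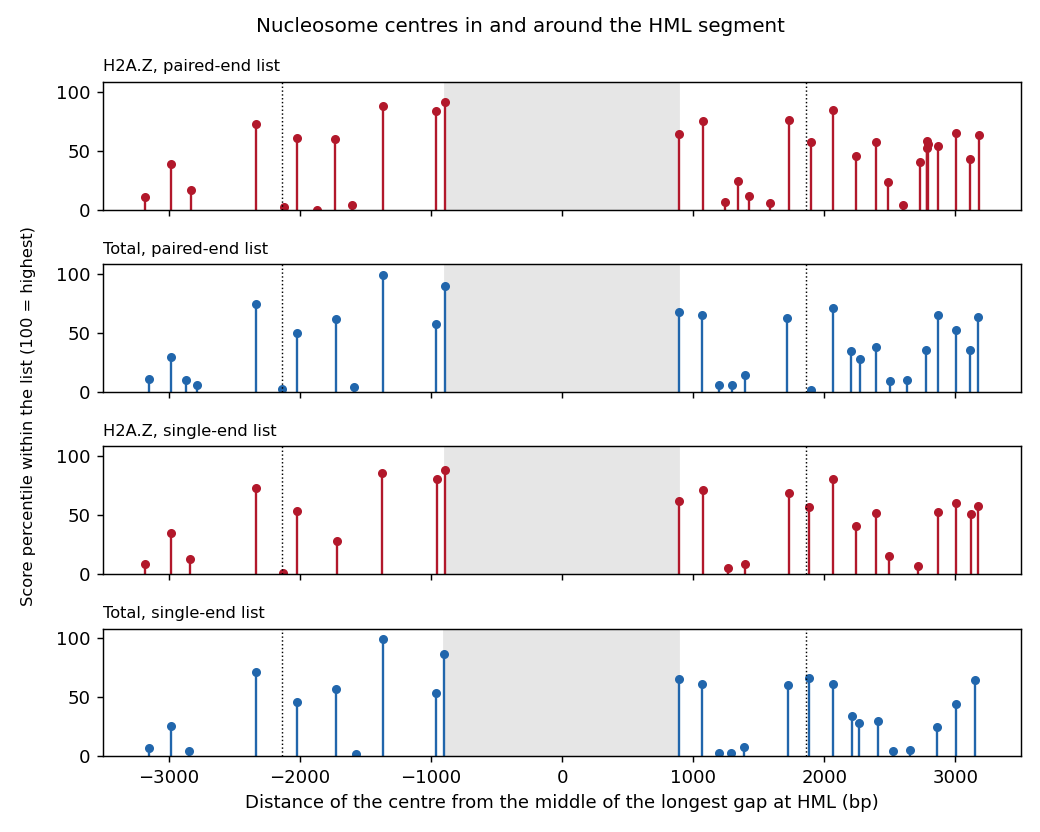
Centres of the 4 lists in and around HML by distance in bp from the middle of the long empty stretch (grey), each with its score percentile within its own list (vertical axis, 0 to 100), with H2A.Z lists in red, total lists in blue and dotted lines at the limits taken for HML. All 4 lists leave about the same stretch empty, 1784 bp in the H2A.Z and 1788 bp in the total paired-end list, and 8 centres recur in all 4.

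Beyond HML the single-end spacing came closer to the rest of the chromosome, while the H2A.Z paired-end spacing and the ranks varied between stretches. At 15 to 20 kb the median paired-end percentiles were 42.2 in the H2A.Z library and 43.2 in total chromatin. At 20 to 25 kb they were 57.8 and 61.01. There 5 of 35 H2A.Z centres, 14.3% (4.81 to 30.3%), and 8 of 37 total centres, 21.6% (9.83 to 38.2%), were in the top 10%. The whole lists had 9.98% and 9.99%, inside both intervals. At 25 to 30 kb the median percentiles were 34.4 and 43.5, with 3 of 42 H2A.Z centres (7.14%) and 3 of 39 total centres (7.69%) in the top 10%. Single-end distances of 140 to 200 bp made up 50.0% in the H2A.Z library and 60.6% in total chromatin at 15 to 20 kb, 70.4% and 67.9% at 20 to 25 kb, and 51.7% and 73.3% at 25 to 30 kb. In the H2A.Z paired-end list the median distance was 113 bp at 15 to 20 kb, 151 bp at 20 to 25 kb and 116 bp at 25 to 30 kb, against 140.3 bp in the rest. Distances under 100 bp made up 43.9% of that list at 25 to 30 kb (28.5 to 60.3%), above 48 of 51 windows and close to the 43.2% at 5 to 11 kb. In total chromatin the same stretches had medians of 135, 152 and 130.5 bp, against 137 bp in the rest.

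The highest scores of the left end lay mostly in this inner part. In the H2A.Z paired-end list they were at 17315 (rank 19 of 2264), 24802 (rank 21) and 23348 (rank 30). In the total paired-end list they were at 23349 (rank 15 of 2353), 11772 (rank 25) and 17321 (rank 28). The sites at 17315 and 23348 were thus strong in both libraries, with total ranks of 28 and 15. The H2A.Z centre at 24802 had a total partner at 24814 that ranked 502, a percentile of 78.7. Its total single-end partner ranked 106, a percentile of 94.4, so the gap between the libraries was smaller there.

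Runs of at least 3 consecutive distances of 140 to 200 bp were rarer at the left end. They held 16.7% of H2A.Z paired-end centres (12.1 to 22.2%), against 36.6% in the rest (34.3 to 38.8%), and 17.4% of total paired-end centres (12.5 to 23.1%), against 35.3% in the rest. The single-end shares were 31.6% in the H2A.Z library (24.7 to 39.1%), against 55.1% in the rest, and 50.0% in total chromatin (42.4 to 57.6%), against 65.6% in the rest. No run lay wholly inside HML in any list. At 5 to 11 kb no run was found in the paired-end lists or in the H2A.Z single-end list, whereas 8 of 37 total single-end centres were in runs. The longest run had 11 centres from 24799 to 26412 in the total single-end list, at a mean distance of 161 bp. In the H2A.Z single-end list a run of 9 centres started at 24801, at a mean of 162 bp. A run of 7 centres from 22337 was shared by the single-end lists, ending at the strong centre at 23348 in the H2A.Z library (mean 168 bp) and at the same site in total chromatin (mean 169 bp).

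By windows of 10 kb, the first and, in the single-end lists, the second stood apart in spacing. In the first 10 kb, distances of 140 to 200 bp made up 14.8% of H2A.Z paired-end distances (8.11 to 23.9%), below all 25 windows of the rest, which ran from 26.7 to 66.7%. In total chromatin they made up 23.8% (15.0 to 34.6%), with 1 window lower. The single-end shares, 27.7% in the H2A.Z library (17.3 to 40.2%) and 37.9% in total chromatin (26.2 to 50.7%), were below all 25 windows. The median paired-end percentile was 30.3 in the H2A.Z library (21.7 to 38.7), with 1 window lower, and 43.9 in total chromatin (36.1 to 53.3), with 4 lower. The first 10 kb were also dense, with 8.9 H2A.Z and 8.1 total paired-end centres per kb, above 25 and 22 of the 25 windows. The single-end densities there were 6.6 and 6.7 per kb, each above 24 windows. At 10 to 20 kb, the window with HML, the single-end shares of 140 to 200 bp were 43.5% in the H2A.Z library (28.9 to 58.9%) and 50.0% in total chromatin (35.2 to 64.8%), also below all 25 windows. The paired-end shares were 38.3% and 32.7%, with 8 and 2 windows lower. Its densities were 6.1 and 5.6 per kb in the paired-end and 4.70 and 4.90 per kb in the single-end lists, with 2, 1, 1 and 1 windows lower. At 20 to 30 kb the shares of 140 to 200 bp were 43.4% and 42.7% in the paired-end lists, with 11 and 13 of 25 windows lower.

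Most H2A.Z centres of the left end had a counterpart in total chromatin. In the paired-end lists 150 of 227 lay within 20 bp of a total centre, 66.1% (59.5 to 72.2%), against 69.1% in the rest (66.9 to 71.2%) and 69.4% over the whole list. In the single-end lists 132 of 171 did, 77.2% (70.2 to 83.3%), against 83.0% in the rest (81.0 to 84.9%) and 82.4% over the whole list. As a share of total centres, 70.0% of the paired-end centres (63.3 to 76.0%) had an H2A.Z centre within 20 bp, against 67.5% in the rest. Of the total single-end centres 132 of 176 did (67.9 to 81.2%), against 82.6% in the rest. The 2 lists of each library placed most centres alike: 144 of 171 H2A.Z single-end centres lay within 20 bp of an H2A.Z paired-end centre, 84.2% (77.9 to 89.3%), against 81.1% over the whole list. In total chromatin 141 of 176 did, 80.1% (73.4 to 85.7%), against 81.8% over the whole list.

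Where the same site was listed in both libraries, the H2A.Z centre tended to have the lower percentile, chiefly in the first 10 kb. Over 144 paired-end pairs, each the other's nearest centre within 20 bp, the median difference of H2A.Z minus total percentile was -6.69 (-10.1 to -1.53), against -2.36 over 1253 pairs in the rest (-3.77 to -0.95). This contrast depended on close centres and on the match distance: the paired-end median was -3.11 (-7.98 to -0.86) against -2.57 with every centre within 100 bp of a higher-scoring one removed, and -3.42 (-9.58 to 0.03) against -2.52 for matches within 10 bp. Over 132 single-end pairs it was -6.02 (-10.5 to -3.15), against -1.64 in the rest. In the first 10 kb the paired-end median was -11.6 (-14.4 to -7.10), with the H2A.Z percentile lower in 41 of 54 pairs. The single-end median there was -9.75 (-12.0 to -5.67), with 43 of 48 pairs lower. Of the 25 windows of the rest 3 had a lower paired-end and 2 a lower single-end median, so a value of this size was uncommon but did occur elsewhere. From 10 to 20 kb, which includes HML, the median was 0.35 in the paired-end and 1.33 in the single-end lists. From 20 to 30 kb it was -6.71 and -7.24, with 10 and 8 of the 25 windows lower. The middle value of the window medians was -5.32 paired-end and -4.03 single-end, so the 20 to 30 kb values were ordinary for the chromosome. Within HML 4 of 10 paired-end pairs had the lower percentile in the H2A.Z library, and the median was 0.72 (-3.42 to 13.9). Over windows of 5 kb the paired-end medians of the rest ran from -25.7 to 31.4, and 13 and 12 of 51 were lower than the medians of the first 5 kb (-10.9) and of 5 to 11 kb (-11.8).

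Sites at which H2A.Z stood far above total chromatin made up a smaller share than in the rest. The intervals of left end and rest overlapped in the paired-end lists and did not meet in the single-end lists. A difference of +25 percentile points or more was found in 11 of 144 paired-end pairs at the left end, 7.64% (3.87 to 13.3%), against 13.7% in the rest (11.9 to 15.8%) and 15.0% over the whole list. In the single-end lists it was found in 6 of 132, 4.55% (1.69 to 9.63%), against 12.8% in the rest (11.0 to 14.8%) and 13.9% over the whole list. A difference of -25 or lower was found in 23 paired-end pairs, 16.0% (10.4 to 23.0%), against 16.6% in the rest and 16.3% over the whole list. The single-end count was 20, 15.2% (9.51 to 22.4%), against 14.0% in the rest and 13.6% over the whole list. The share of pairs far lower in the H2A.Z library was thus near the background, and the share far higher was under it.

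**Figure D4:**
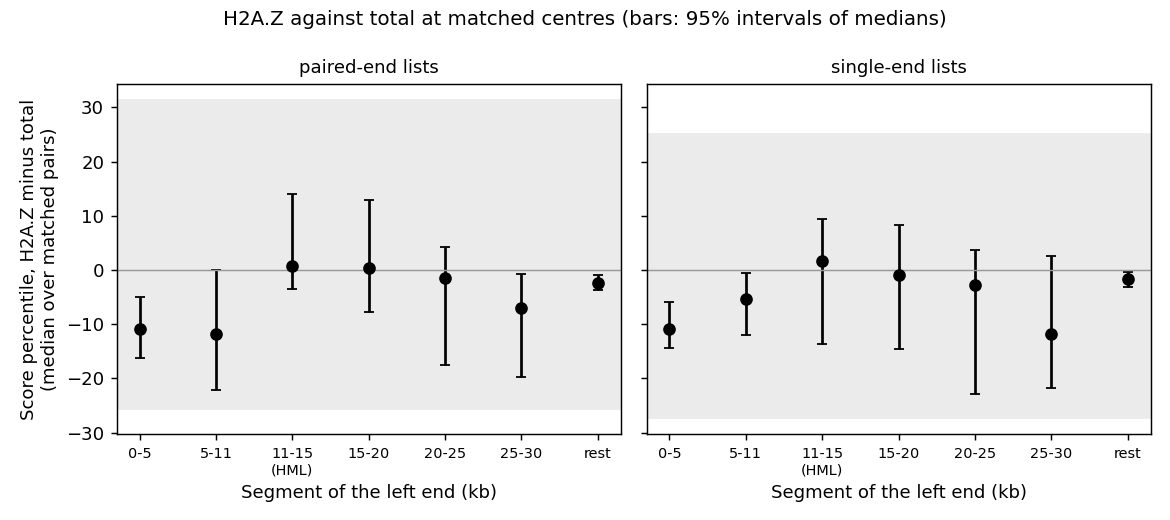
Median difference of H2A.Z minus total score percentile over matched pairs (vertical axis, percentile points) in 6 stretches of the left end in kb and in the rest, for paired-end lists (left) and single-end lists (right), with bars for 95% intervals of the medians and grey bands for the range of medians over the 5 kb windows of the rest. The paired-end medians of the first 5 kb and of 5 to 11 kb are -10.9 and -11.8, that of HML is 0.72, and all of them lie inside the grey band, which runs from -25.7 to 31.4.

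The 5 pairs with the largest positive differences mixed 2 kinds. At 16922 the H2A.Z percentile was 70.7, against 26.9 for total chromatin, a difference of 43.9, and the single-end difference was 32.2. At 27739 it was 89.4, against 49.4, a difference of 40.0, and the single-end difference was 33.6. The other three, at 22684, 15034 and 19584, differed by 81.0, 55.7 and 38.9, but the fitted variance of reverse read positions of their total centres was 15272850, 1.17e+08 and 9.63e+08 squared bp. The single-end differences at 22684 and 15034 were -8.54 and -9.22, and 19584 had no single-end pair. In all, 4 of the 11 pairs at +25 or more held a centre with a reverse variance over 10000 squared bp. Of the 11, 7 had a single-end pair, which had the same sign in 5 and reached +25 in 4.

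The 5 largest negative differences were at 27007, 8453, 23003, 2163 and 18423. At 23003 the H2A.Z percentile was 40.8, against 90.4 for total chromatin, a difference of -49.6, and the single-end difference was -48.2. At 27007 it was 5.61, against 66.4, and at 8453 it was 5.08, against 56.7, and neither had a single-end pair. The H2A.Z centres at 2163 and 18423 had reverse variances of 10994 and 4041205 squared bp, and their single-end differences were -1.04 and -19.3, against -44.5 and -42.6 in the paired-end lists. Of the 23 pairs at -25 or lower, 2 held such a centre, and the 12 with a single-end pair all kept the sign, 7 of them at -25 or lower. At the left end, centres with a reverse variance over 10000 squared bp numbered 2 of 227 in the H2A.Z and 6 of 213 in the total paired-end list. These shares, 0.88% and 2.82%, were near the 1.02% and 2.59% over the whole lists. The single-end lists had none at the left end.

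Distances over 300 bp made up a larger share at the left end than in the rest in all 4 lists, with intervals that overlap in each, and HML held 2 of the 5 in the H2A.Z and 3 of the 6 in the total paired-end list. They numbered 5 in the H2A.Z paired-end list, 2.21% of its distances (0.72 to 5.09%), against 27 or 1.48% in the rest. They make up 1.68% of all distances over the whole list. In the total paired-end list they numbered 6, 2.83% (1.05 to 6.06%), against 27 or 1.42% in the rest, and 1.57% over the whole list. Both libraries had one at 4888 to 5231 in the H2A.Z list (343 bp) and 4889 to 5224 in the total list (334 bp). Both had another just outside HML, at 10305 to 10803 in the H2A.Z list (498 bp) and 10350 to 10802 in the total list (452 bp), although a total centre lay inside the H2A.Z one. The H2A.Z list had a further one at 8095 to 8453 (357 bp), with 1 total centre inside in each kind of list. The total list had further ones at 14532 to 14855 (323 bp), with 2 H2A.Z paired-end centres inside, and at 16932 to 17321 (389 bp), with 1 inside. Both single-end lists had these as well, at 335 and 396 bp in the H2A.Z library and 336 and 378 bp in total chromatin. Only the H2A.Z paired-end list had centres inside them, so they did not separate the libraries. In the single-end lists 11 of 170 distances of the H2A.Z library were over 300 bp, 6.47% (3.27 to 11.3%), against 2.98% in the rest (2.18 to 3.97%) and 3.39% over the whole list. In total chromatin 7 of 175 were, with limits of 1.62 and 8.07%, against 2.17% in the rest and 2.39% over the whole list. The total distance that starts at 16932 ended at the strong centre shared by both libraries at 17315 and 17321.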

How the data were processed

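Predicted nucleosome centres on chromosome III were compared between 1 H2A.Z and 1 total mononucleosome library, grouped by their sample titles. The series title names PING, which models forward and reverse read positions. The submitters' processing notes list BWA, SAMtools and build sacCer2 with no version, and read filters are not stated there. Per the file headers, the authors deposited for each centre its position, the forward to reverse distance, variances and standard errors in bp or squared bp, a mixing weight that is a fraction, a rank and a score with no stated scale. Paired-end and single-end lists are told apart by their file names. The lists hold no read counts, so depth is unknown.

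Distances, percentiles and matches (nearest centre within 20 bp) were computed with numpy 2.4.6, pandas 2.3.3 and scipy 1.17.1 under Python 3.11.15, drawn with matplotlib 3.10.9, and tested on simulated data. A pair is 2 centres, each the other's nearest. Named centres were the first 3 and the 3 highest-scoring of each paired-end list, all at HML, both ends of distances over 300 bp, and the 5 largest percentile differences of each sign. The longest runs were named after their values were seen. The region, lists and measures were chosen with earlier results of these data known. Windows of 5 kb, runs, recurrence in all 4 lists, removal of HML and of reverse variances over 10000 squared bp were added after seeing the data. Gene names and order come from the R64 RefSeq table, and a genome sequence was not used here.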

Additional observations from a re-analysis of the deposited data

Results flagged for a closer look

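In the paired-end lists 3 measures differed from the rest of the chromosome in opposite directions in the 2 libraries. The density of centres at the left end minus that of the rest was 0.42 per kb in the H2A.Z library and -0.35 per kb in total chromatin. The median forward SD differed by -0.42 bp in the H2A.Z library and 0.47 bp in total chromatin. The median forward to reverse peak distance differed by 0.70 bp in the H2A.Z library and -0.35 bp in total chromatin. The difference between the libraries was not tested, since each has 1 library, and in the single-end lists none of the 3 measures had opposite signs.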

How the results depend on the processing

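Of 71 alternative values for 12 results, 46 stayed within the interval of the value reported or, for counts, within 1.5 times of it, 25 moved further, and none of the percentile differences changed sign. The sign of left end minus rest was kept in 61 and changed in 10. The median score percentiles and the percentile difference kept it in all alternatives run for them, but the percentile difference was -3.11 with close centres removed and -3.42 at a match distance of 10 bp, in place of -6.69, and left end minus rest was -0.54 and -0.90, in place of -4.33. Single-end lists gave 5.70 centres per kb in the H2A.Z library and 5.87 in total chromatin, median distances of 158 and 159 bp, forward SDs of 31.3 and 30.6 bp, 11 distances over 300 bp in the H2A.Z library and 77.2% of H2A.Z centres matched. With centres within 100 bp of a higher-scoring one removed, densities were 5.27 and 5.17 per kb and medians 168 and 169 bp. With the upper 75% of scores, densities were 4.83 and 5.13 per kb, medians 160.4 and 161 bp, the H2A.Z forward SD 25.3 bp, and distances over 300 bp numbered 28 and 21. A minimum of 250 bp gave 11 and 12 such distances, and leaving out HML gave 3 and 3. A left end of 20 kb made the total forward SD 1.14 bp higher than the rest. Match distances of 10 and 50 bp gave 47.1% and 89.4% matched. The changed signs were those of both median distances with close centres or low scores removed, the H2A.Z density in the single-end lists and under the same removals, the total density without HML, the H2A.Z forward SD in the single-end lists and the matched share in the upper 75% of scores. The cause was not tested. No paired analysis was possible because each group has 1 library. Unknown depth limits every rank and every empty stretch.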
